A study of Mus musculus with 6 samples.

Results

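S1pr1, Cxcr4 and Rgs1, which encode a receptor for tissue exit, a receptor for tissue retention and a regulator of their G protein signals, were followed in macrophages from the peritoneal cavity of tumor-bearing mice. These genes were selected by their measured differences between the same samples described here, so their values are given as a description and without a test. Any other row of the table whose symbol starts with S1pr or Sphk was taken by its symbol alone, which added Sphk1. This gave 4 of the 754 genes in the table, and no other row of the table used here starts with these letters. The 6 samples were F4/80+ CD11b+ macrophages sorted from peritoneal lavage of adult C57BL/6J mice, all of which carried ID8 tumors, grown from a mouse ovarian cancer cell line that had been injected 7 weeks before treatment. Both groups received 2 intraperitoneal injections, on days 1 and 5. The 3 PBS samples came from mice given phosphate-buffered saline, and the 3 IRF5-NP samples from mice given nanoparticles with 30 µg of mIRF5 mRNA in each dose, which encodes interferon regulatory factor 5, a transcription factor of inflammatory macrophages. The paper's methods describe another amount of mRNA, an earlier start after the tumor cells and a second mRNA, for the kinase IKKβ, and the labels were followed here. With no group given empty particles or a control mRNA among these samples, the particle and its cargo cannot be told apart.

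Sphingosine 1-phosphate (S1P) is a lipid that is abundant in blood and lymph and scarce inside tissues. S1PR1, the receptor encoded by S1pr1, couples to inhibitory G proteins and lets leukocytes leave tissues along this gradient, whereas CXCR4 holds cells where stromal cells make its ligand CXCL12. RGS1 speeds the hydrolysis of GTP on inhibitory Gα subunits and so shortens the signals of such chemoattractant receptors, and SPHK1 is a kinase that makes S1P from sphingosine. The egress role of S1PR1 is best known in lymphocytes, and CXCR4 is also known from the release of neutrophils and monocytes from the bone marrow.

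Expression was measured with the nCounter assay, in which each transcript is bound by its own barcoded probe and the bound probes are counted directly, and values are normalized counts on a linear scale. The sums over all genes were between 683472 counts, in IRF5-NP replicate 3, and 1830318 counts, in PBS replicate 1. The background, the mean plus 2 SD of 8 negative control probes, ranged from 25.6 to 37.8 normalized counts, apart from 79.4 in IRF5-NP replicate 3. Between the counts of PBS replicates 2 and 3 a chi-square test over all genes found no difference beyond sampling noise (1.07 per degree of freedom, p = 0.0782), and they were counted as 1 sample, so that means and tests compare 2 PBS samples with 3 IRF5-NP samples. The labels do not say whether the samples came from separate mice, and p-values then measure only the spread between these samples. All 10 measured macrophage markers lay above the background in all 6 samples, among them Adgre1, the gene of F4/80, at 6523 to 25506 and Itgam, the gene of CD11b, at 15177 to 36473 normalized counts. Irf5 had 2573, 1991 and 1929 normalized counts in the PBS samples and 1960, 2358 and 2294 in the IRF5-NP samples, which overlap. The delivered mRNA was codon-optimized according to the paper, and whether the Irf5 probe reads it is not given in the sources used here.

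The promoter of Cxcr4 is shown because it is the regulatory sequence of the retention receptor. All 4 genes matched the RefSeq gene table by symbol, and the RefSeq promoter table has no entry for S1pr1 or Rgs1. The 250 bases before the start lie on the minus strand at chr1:128592300-128592549 of GRCm38.p6, with capitals for GC boxes, an NRF1 core and a TATA box.
Cxcr4: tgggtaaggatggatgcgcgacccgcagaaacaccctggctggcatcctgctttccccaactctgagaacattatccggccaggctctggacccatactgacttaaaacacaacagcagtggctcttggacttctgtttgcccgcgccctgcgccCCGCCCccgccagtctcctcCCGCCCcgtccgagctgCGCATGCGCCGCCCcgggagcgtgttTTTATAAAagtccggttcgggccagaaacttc
Motifs were searched on both strands, and their shares are of the 27025 genes with a promoter of the same length. The GC box GGGCGG matched 3 times, each on the opposite strand, at bases -95 to -90, -75 to -70 and -50 to -45, and 32.9% of promoters held it. The NRF1 core CGCATGCG matched at -58 to -51, directly before the last GC box, and was held by 1.58% of promoters. The letters TATAAA matched on both strands at overlapping places, -32 to -27 and -30 to -25, and 12.97% of promoters held them. Of motifs for factors named with these pathways, the KLF motif CACCC matched at -219 to -215 (51.3% of promoters). The hypoxia response element, searched as ACGTG or GCGTG, matched at -39 to -35 (38.6%). The IRF repeat GAAANNGAA (7.16% of promoters), the AP-1 motif TGANTCA (6.87%), the FOXO motif GTAAACA (3.09%) and the NF-κB motif GGGRNNYYCC (7.01%) had no match in these letters. Here N is any base, R is A or G, and Y is C or T. A match describes the sequence and is not a measured binding site.

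S1pr1, the egress receptor, was higher in the IRF5-NP samples. It had 116, 110 and 95.1 normalized counts in PBS replicates 1, 2 and 3, and 359, 469 and 437 in IRF5-NP replicates 1, 2 and 3. Every IRF5-NP sample lay above every PBS sample, with the lowest of them 3.09-fold above the highest PBS sample. The PBS mean was 109 ± 9.90 normalized counts (SD, n = 2) and the IRF5-NP mean 421 ± 56.4 (SD, n = 3), which differ by 1.93 on the log2 scale with a pseudocount of 1. In order of this difference S1pr1 stood at place 6 from the top of the 754 genes. The spread within each group was small, with the highest sample 1.22 times the lowest in the PBS group and 1.31 times in the IRF5-NP group. The values rest on 76 to 112 counts in the PBS samples and 168 to 425 counts in the IRF5-NP samples, and the exact Poisson 95% intervals, which cover counting error only, reached at most 140 normalized counts with PBS and went down to no less than 324 with IRF5-NPs. All 6 values lay above the background. Since each sample holds the RNA of many cells, a different share of cells with a transcript and a different amount of it in each cell cannot be told apart, here or in the results that follow.

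Cxcr4, the retention receptor, was lower in the IRF5-NP samples. It had 1150, 734 and 736 normalized counts in PBS replicates 1, 2 and 3, and 273, 209 and 286 in IRF5-NP replicates 1, 2 and 3. The groups did not overlap, and the lowest PBS sample lay 2.57-fold above the highest IRF5-NP sample. The means were 943 ± 293 normalized counts (SD, n = 2) and 256 ± 40.9 (SD, n = 3), a log2 difference of -1.85, which stood at place 32 from the bottom of the 754 genes. PBS replicate 1 was 1.56 times the mean of the other PBS samples, and its Poisson interval of 1083 to 1220 did not meet theirs, which lay within 678 to 798. Without PBS replicate 1 the log2 difference was -1.53.

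Rgs1, the regulator that shortens G protein signals, was also lower in the IRF5-NP samples, and of the 3 selected genes it varied most within groups. It had 5303, 1853 and 1786 normalized counts in PBS replicates 1, 2 and 3, and 456, 755 and 803 in IRF5-NP replicates 1, 2 and 3. The lowest PBS sample lay 2.22-fold above the highest IRF5-NP sample. The means were 3561 ± 2463 normalized counts (SD, n = 2) and 671 ± 188 (SD, n = 3), a log2 difference of -2.25, at place 23 from the bottom. PBS replicate 1 was 2.91 times the mean of the other PBS samples, and without it the log2 difference was -1.48. Among the IRF5-NP samples, replicate 1 was at 0.585 of the mean of the others.

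Over the whole table, 17.0% of genes had all 3 IRF5-NP values above all 3 PBS values and 20.4% had all 3 below. S1pr1 is among the former and Cxcr4 and Rgs1 are among the latter, and since all 3 were selected by this contrast, nothing further is read from it.

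**Figure D1:**
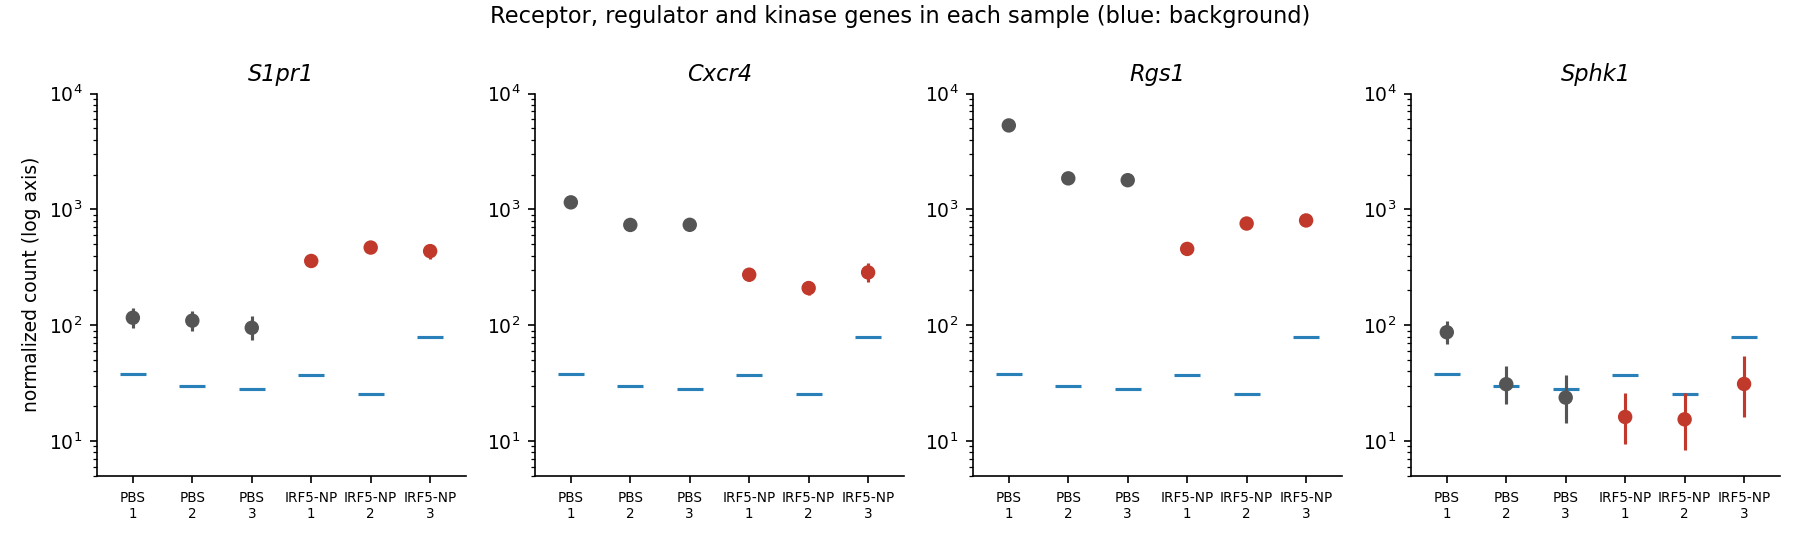
Normalized counts (log axis) of S1pr1, Cxcr4, Rgs1 and Sphk1 in each sample, with PBS in grey, IRF5-NP in red, exact Poisson 95% intervals as vertical lines and the background of each sample as a blue line. The S1pr1 points rise from 95.1 to 116 with PBS to 359 to 469 with IRF5-NPs, Cxcr4 and Rgs1 lie lower with IRF5-NPs, and most Sphk1 points lie near or below the background.

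Sphk1, which was not selected by its values, stood near the background. It had 87.1, 31.0 and 23.8 normalized counts in the PBS samples, above the background in 2 of 3, and 16.2, 15.4 and 31.2 in the IRF5-NP samples, above it in 0 of 3. The groups overlapped. The test of limma, fitted over all 754 genes with Benjamini-Hochberg adjustment, gave no call (adjusted p = 0.208), where it called 9.55% of all genes. The log2 difference was -1.26, which is not read as a size since the IRF5-NP values were not above the background. PBS replicate 1 again had the highest value, and without it the log2 difference moved from -1.26 to -0.43. Leaving out PBS replicate 1 leaves 1 PBS sample, which limma then assumes to vary like the IRF5-NP samples, here and in the tests that follow.

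The egress receptor was then set against the other genes within each sample, where any factor shared by all genes of a sample cancels. The log2 value of S1pr1 minus that of Cxcr4 was -3.30, -2.73 and -2.94 in PBS replicates 1, 2 and 3, and 0.39, 1.16 and 0.61 in IRF5-NP replicates 1, 2 and 3. All IRF5-NP samples lay above all PBS samples, by at least 3.12. The group means were -3.07 ± 0.33 (SD, n = 2) and 0.72 ± 0.39 (SD, n = 3), which is a shift of 3.79 on the log2 scale, or 13.8-fold in the ratio of S1pr1 to Cxcr4. Since different probes can count with different efficiency, only the shift is read here and not the place of 0.

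For S1pr1 minus Rgs1 the log2 values were -5.50, -4.07 and -4.22 in the PBS samples and -0.34, -0.69 and -0.88 in the IRF5-NP samples. The groups were apart by at least 3.19. The means were -4.82 ± 0.96 (SD, n = 2) and -0.64 ± 0.27 (SD, n = 3), a shift of 4.18, or 18.2-fold in the ratio. Without PBS replicate 1 the shift was 3.50.

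Cxcr4 and Rgs1 did not part from each other in this way. Their log2 difference was -2.20, -1.33 and -1.28 in the PBS samples and -0.74, -1.85 and -1.49 in the IRF5-NP samples, and the groups overlapped. The means, -1.76 ± 0.64 (SD, n = 2) and -1.36 ± 0.57 (SD, n = 3), differed by 0.40, which is less than the pooled SD of 0.59. Without PBS replicate 1 the shift turned to -0.050.

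**Figure D2:**
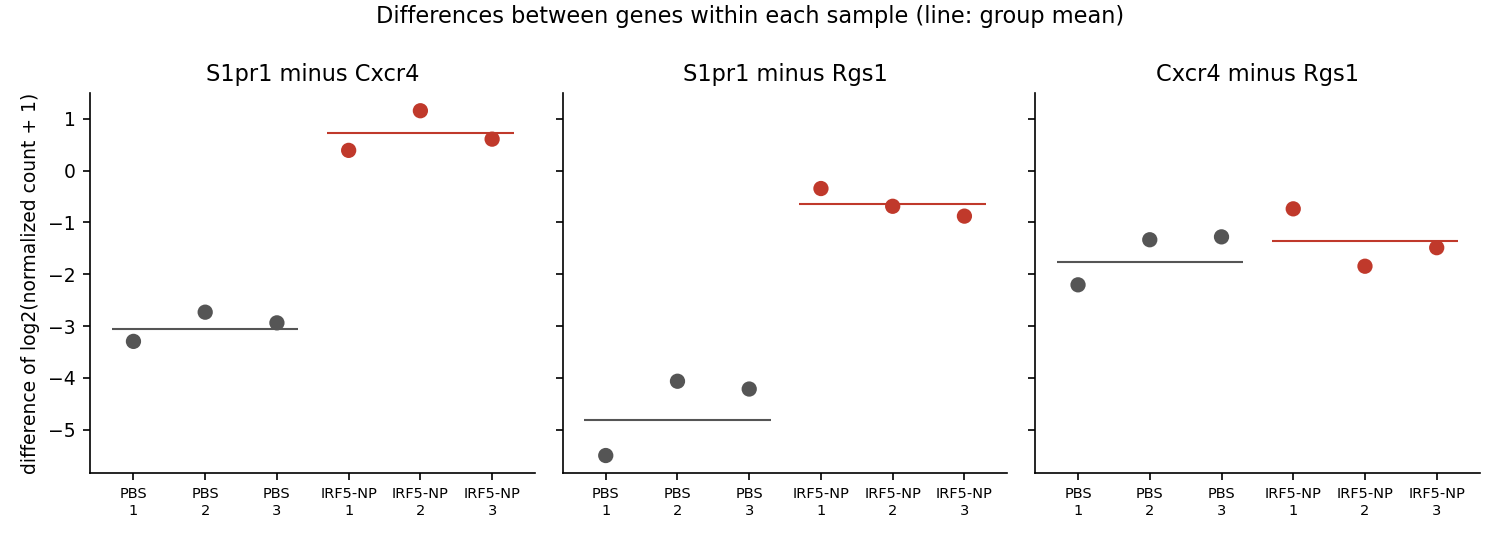
Differences of log2 (normalized count + 1) between pairs of the selected genes within each sample, with PBS in grey, IRF5-NP in red and lines at the group means. The groups are apart for S1pr1 minus Cxcr4 (shift 3.79) and for S1pr1 minus Rgs1 (shift 4.18), and overlap for Cxcr4 minus Rgs1.

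The levels of all 3 selected genes were also taken with other scalings, with the negative controls subtracted and with each sample left out. None of these settings turned a direction, and for Cxcr4 and Rgs1 PBS replicate 1 moved the value most.

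**Figure D3:**
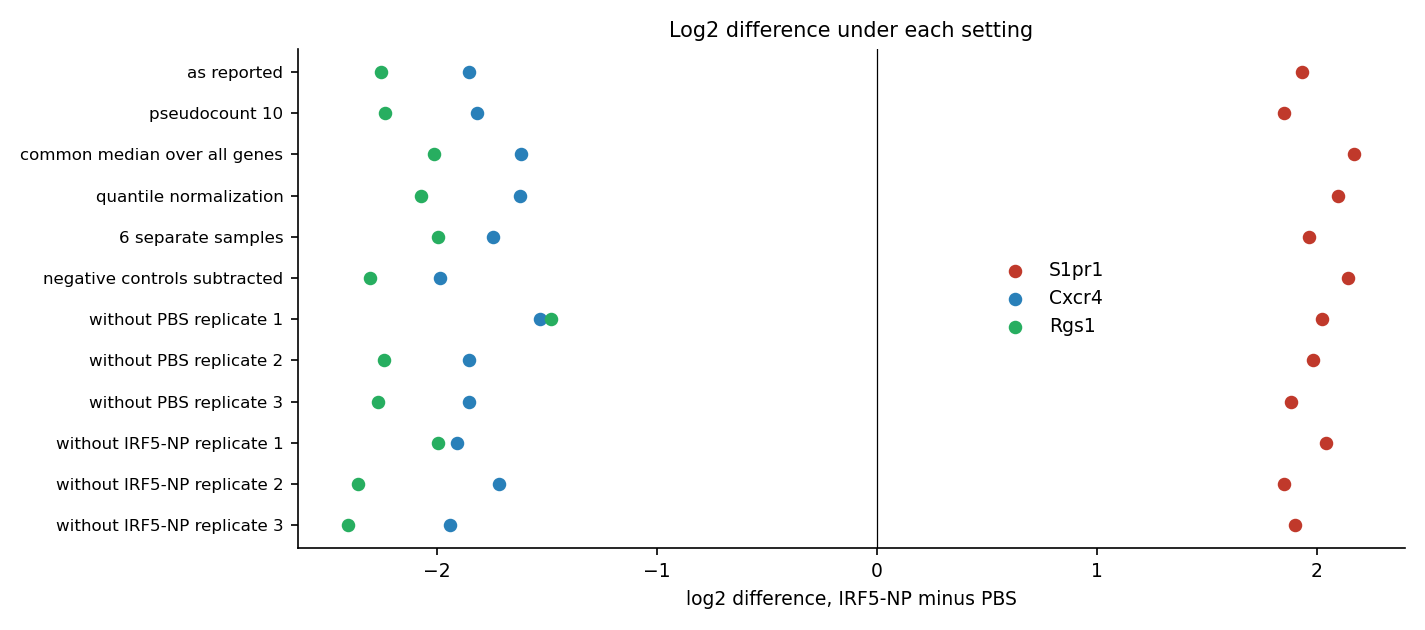
Log2 difference (IRF5-NP minus PBS) of S1pr1, Cxcr4 and Rgs1 as reported and under each other way of processing or with each sample left out. S1pr1 stays between 1.85 and 2.17, Cxcr4 between -1.99 and -1.53, and Rgs1 moves from -2.25 to -1.48 without PBS replicate 1.

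The rest of the S1P and CXCR4 pathways was read from lists of genes by role, with the selected genes left out and limma's test with Benjamini-Hochberg adjustment over all 754 genes at 0.05. Of 78 measured list genes, 7 passed, 1 higher and 6 lower, which is 8.97%. Among all genes tested 72 passed, or 9.55%, with 2.52% higher and 7.03% lower, so the list genes passed about as often as any gene. Their median log2 difference was -0.10, beside -0.03 for all genes. With PBS replicate 1 left out 4 list genes and 35 of all genes passed, with IRF5-NP replicate 2 left out 4 and 41, and with IRF5-NP replicate 3 left out 2 and 21. With the mean of the negative controls subtracted, 2 list genes and 25 of all genes passed, and Cd74 was the only one of the 7 among them. Scaling each sample to a common median gave 42 higher and 36 lower genes over the table, and quantile normalization 35 and 40, beside 19 higher and 53 lower as reported.

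Among the 6 measured ligands and partners, 1 passed, Cd74 as lower, where 7.03% of all genes did. Cd74 encodes the invariant chain of MHC class II, which also serves as a receptor for MIF together with CXCR4. It had 69773, 100396 and 98757 normalized counts in the PBS samples and 12800, 10495 and 10534 in the IRF5-NP samples, a log2 difference of -2.89 (limma adjusted p = 0.00188). Cxcl12, the ligand of CXCR4, had 111, 44.5 and 47.6 normalized counts with PBS and 82.8, 104 and 109 with IRF5-NPs, with groups that overlapped (limma adjusted p = 0.571). Mif, a cytokine that binds CD74 and CXCR4, had 10666, 6618 and 6593 against 5555, 4821 and 5140 normalized counts and did not pass (limma adjusted p = 0.160). The other 3 measured members, Cxcl14, Dpp4 and Ptprc, did not pass, and Dpp4, a protease that trims CXCL12, lay below the background in all 6 samples. The median log2 difference over these 6 genes was -0.43. On the S1P side, Sgpp1, a phosphatase that removes S1P, had 818, 648 and 676 normalized counts with PBS and 651, 1006 and 847 with IRF5-NPs, with overlap (limma adjusted p = 0.766).

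Few genes of the G protein step were measured. Rgs16, a relative of Rgs1, lay below the background in all 6 samples, as did Rgs6, which was not on the list. Gnai3, an inhibitory Gα subunit on which RGS1 acts, had 2478, 2717 and 2617 normalized counts with PBS and 2450, 4805 and 4152 with IRF5-NPs, with overlap (limma adjusted p = 0.385). Of 10 signalling genes after the receptor, 0 passed, where 9.55% of all genes did, and their median log2 difference was -0.19. The nearest to the threshold were Vav1, a guanine nucleotide exchange factor for Rac, at a log2 difference of -0.73 (limma adjusted p = 0.0506), and Prkca, a protein kinase C, at 0.76 (limma adjusted p = 0.0703). The groups of both were apart. At an unadjusted p under 0.05, 191 genes of the whole table passed by limma and 125 by the methods' t-test, which passed 0 after adjustment.

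Of 9 genes known to act on S1pr1 or Cxcr4 or on their products, 2 fell and 0 rose, which is 22.2%, where 9.55% of all genes passed. The median log2 difference over the list was -0.27. Cd69 encodes an early activation protein that binds S1PR1 and removes it from the cell surface, and its transcript had 156, 116 and 103 normalized counts in the PBS samples and 45.7, 26.5 and 46.8 in the IRF5-NP samples. The groups were apart, and the log2 difference was -1.74 (limma adjusted p = 0.0238), with IRF5-NP replicate 3 below its background of 79.4. Cd69 did not pass with the negative controls subtracted, where it was at -3.87 (limma adjusted p = 0.227), without PBS replicate 1 (-1.48, limma adjusted p = 0.144) or without any IRF5-NP replicate, where the log2 difference was -1.86, -1.47 and -1.87 without replicates 1, 2 and 3. Socs3, a feedback inhibitor of cytokine signals through STAT3, had 2119, 1593 and 1585 normalized counts with PBS and 1106, 769 and 850 with IRF5-NPs, a log2 difference of -1.03 (limma adjusted p = 0.0380). It did not pass with a common median (-0.79), quantile normalization (-0.74) or the negative controls subtracted (-1.06, limma adjusted p = 0.140), nor when PBS replicate 1 (-0.82) or IRF5-NP replicates 2 (-0.92) or 3 (-0.99) were left out. Klf4, a relative of the S1pr1 activator Klf2, had 4978, 1797 and 1828 normalized counts with PBS and 2159, 1408 and 1403 with IRF5-NPs, with overlap and no call (limma adjusted p = 0.245). Hif1a, which encodes a factor known to raise Cxcr4 under low oxygen, had a log2 difference of -0.27 (limma adjusted p = 0.515), and Stat3, whose product is known to act on S1pr1, had -0.12 (limma adjusted p = 0.771).

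Among 31 other receptors for chemoattractants and lipid mediators, 1 fell and 0 rose, which is 3.23%, where 9.55% of all genes passed. Ccrl2, a receptor that binds chemerin without G protein signals, had 2211, 903 and 955 normalized counts with PBS and 293, 278 and 309 with IRF5-NPs, a log2 difference of -2.29 (limma adjusted p = 0.00707). It did not pass without IRF5-NP replicate 3 (-2.32, limma adjusted p = 0.0650), with the negative controls subtracted (-2.41, limma adjusted p = 0.103) or with Benjamini-Yekutieli adjustment (limma adjusted p = 0.0509). The receptors with the highest mean values did not pass, with C3ar1, the C3a receptor, at a log2 difference of -0.37 (limma adjusted p = 0.482) and C5ar1, the C5a receptor, at -0.45 (limma adjusted p = 0.382). The median log2 difference over the 31 genes was 0.047.

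Of 18 adhesion genes of leukocyte trafficking, 2 fell and 1 rose, which is 16.7%, where 9.55% of all genes passed. The median log2 difference over the list was 0.095. Itgal, the α chain of LFA-1, had 401, 714 and 745 normalized counts in the PBS samples and 146, 152 and 166 in the IRF5-NP samples, a log2 difference of -1.80 (limma adjusted p = 0.00844). Itgb2, the β chain of LFA-1, went the other way, at a log2 difference of 1.15 with groups apart, and did not pass (limma adjusted p = 0.0715). Itgax, which encodes CD11c, had 145, 204 and 192 against 40.9, 48.5 and 46.8, a log2 difference of -1.88 (limma adjusted p = 0.00589), with IRF5-NP replicate 3 below its background. Selp, the gene of P-selectin and also on the list of resident peritoneal macrophages, had 808, 2497 and 2471 normalized counts with PBS and 3751, 8914 and 8110 with IRF5-NPs, a log2 difference of 2.19 (limma adjusted p = 0.0423). With each sample left out in turn, Itgax and Cd74 passed every time and Itgal each time but without IRF5-NP replicate 3 (-1.85, limma adjusted p = 0.0650). Selp did not pass without PBS replicate 1 (1.38, limma adjusted p = 0.235) or IRF5-NP replicates 1, 2 or 3 (2.58, 1.96 and 2.03). With the negative controls subtracted none of Itgax (-3.80, limma adjusted p = 0.282), Itgal (-2.03, limma adjusted p = 0.0810) and Selp (2.21, limma adjusted p = 0.224) passed.

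**Figure D4:**
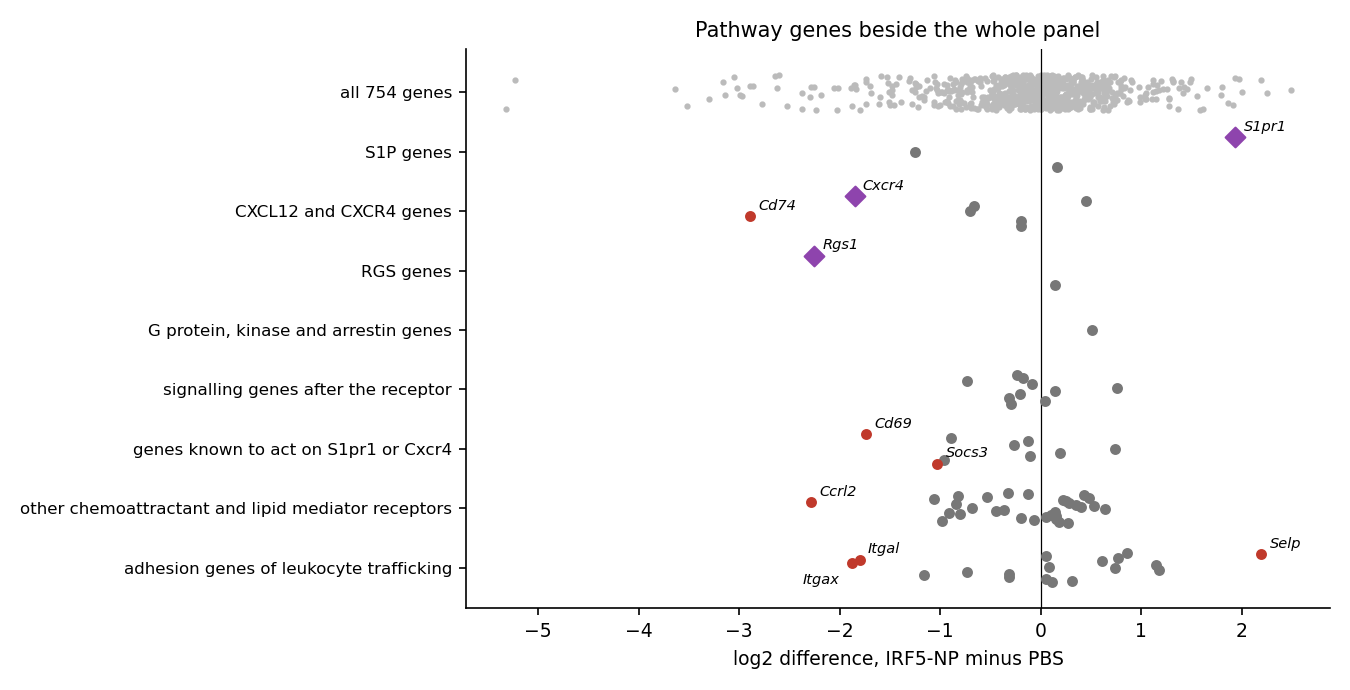
Log2 difference (IRF5-NP minus PBS) of each measured gene of the pathway lists, one row per list, below the 754 genes of the table in light grey. Purple diamonds are the selected genes, red points are list genes past the limma threshold and grey points are list genes that did not pass. Only 7 list genes are red, of which 1, Selp, lies to the right of 0.

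The genes whose profiles were nearest to each selected gene were sought among the other 559 genes above the mean background, by the root mean square difference of log2 values centred over the 6 samples. These distances are descriptions over 6 samples that include both groups and share their depth. Nearest to S1pr1 were Bmp6 (0.149), a BMP family ligand, Cxcl13 (0.255), a chemokine that draws B cells, Ms4a1 (0.259), which encodes the B cell protein CD20, Ceacam1 (0.333), an adhesion molecule, and Hdc (0.396), which makes histamine, where the median over all genes was 1.04. Ms4a1 lay below the background in all 3 PBS samples and passed the filter on the mean only through its IRF5-NP values, so nothing further is read from its place. Bmp6 had 81.9, 84.8 and 86.4 normalized counts with PBS and 243, 402 and 325 with IRF5-NPs, so that its IRF5-NP samples stood in the same order as those of S1pr1.

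Nearest to Cxcr4 were Socs2 (0.143), a cytokine signal inhibitor, Cd69 (0.148), Cd38 (0.196), an NAD-consuming surface enzyme, Mmp8 (0.200), a collagenase, and Gem (0.235), a small GTPase, with a median over all genes of 0.914. Socs2 had 234, 134 and 129 normalized counts in the PBS samples and 51.4, 49.6 and 54.6 in the IRF5-NP samples. Nearest to Rgs1 were Tnfaip3 (0.224), an inhibitor of NF-κB signals, the chemokines Cxcl2 (0.247) and Ccl8 (0.247), Ccrl2 (0.281) and Mmp8 (0.319), with a median of 1.14. Tnfaip3 had 2242, 713 and 642 normalized counts with PBS and 221, 237 and 252 with IRF5-NPs. All 5 of these were highest in PBS replicate 1, as Rgs1 was, and so were Cxcr4 and the 5 genes nearest to it. Since these genes were chosen by nearness over the same samples, nothing further is read from this. Of all genes, 50.3% were highest among the PBS samples in replicate 1. Rgs1 itself stood at place 37 from Cxcr4, at a distance of 0.460, and Mmp8 was on both lists.

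**Figure D5:**
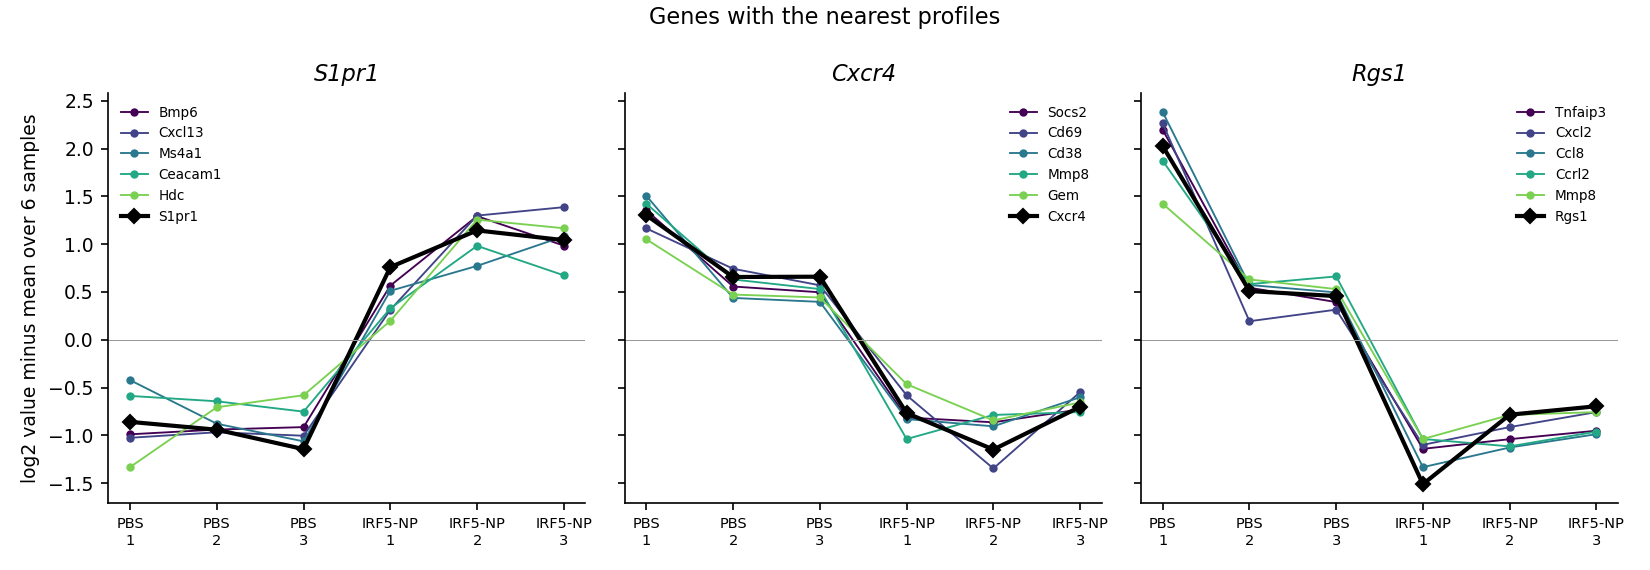
Log2 values minus their mean over the 6 samples for S1pr1, Cxcr4 and Rgs1 (black diamonds) and the 5 genes with the nearest profile to each (colored points), where lines only join the points of a gene. The genes around Cxcr4 and Rgs1 are highest in PBS replicate 1, and those around S1pr1 are low in all 3 PBS samples. The genes were chosen by nearness over these same samples.

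Markers of other cells that carry these receptors were read beside the selected genes. S1pr1 is also known from B cells, T cells, NK cells and endothelial cells. The only measured B cell marker, Ms4a1, had 25.9, 18.6 and 16.3 normalized counts with PBS, below the background in all 3, and 50.5, 60.6 and 75.4 with IRF5-NPs, above it in 2 of 3 (log2 difference 1.49, limma adjusted p = 0.0351). The summed level of the 2 T cell markers was 40.4 to 52.6 with PBS and 51.8 to 88.4 with IRF5-NPs, that of the 3 NK cell markers 96.4 to 129 and 84.9 to 122, and that of the 4 endothelial markers 146 to 197 and 197 to 223, and none of these 9 genes passed. The NK cell genes Nkg7 and Gzma lay below the background in all 6 samples. The endothelial gene Cdh5, which defines that cell type, was at 23.8 to 32.6 in all 6 samples. Of 5 resident large peritoneal macrophage markers, Timd4 and Selp rose, where 2.52% of all genes passed as higher. As given above, Selp did not pass when any 1 IRF5-NP replicate was left out. Of the 5, 4 were higher in every IRF5-NP sample than in every PBS sample, as were 17.0% of all genes. Timd4 had 124, 197 and 207 normalized counts with PBS and 472, 1182 and 1263 with IRF5-NPs (limma adjusted p = 0.0155). The summed level of this list, of which Arg1 holds most, was 92141 to 118033 with PBS and 61319 to 118956 with IRF5-NPs. Of 7 mast cell markers, Cpa3 and Hdc rose, beside the same 2.52% of all genes. Cpa3 lay below the background in all 3 PBS samples and in IRF5-NP replicate 3. The mast cell sum was 250 to 374 with PBS and 641 to 993 with IRF5-NPs, of which Hdc was 143 to 242 and 415 to 865. Kit, which defines mast cells, was at 53.8 to 71.4 with PBS and 28.6 to 49.5 with IRF5-NPs. The part of these cells in the S1pr1 values was not tested.

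PBS replicate 1, the highest sample for Cxcr4 and Rgs1, also had the highest summed level of neutrophil markers and of immediate early genes. These lists were not the only ones. Among PBS samples, replicate 1 was also highest for the sums of macrophage markers (91733, beside 77523 and 76065) and resident macrophage markers. It was lowest for the sums of monocyte and mast cell markers. The summed level of 10 markers of neutrophils, cells that carry CXCR4, was 7276 normalized counts in PBS replicate 1. It was 2364 and 2320 in PBS replicates 2 and 3, and 1661 to 2655 with IRF5-NPs. In PBS replicate 1 most of this sum was S100a8, at 3405, and S100a9, at 2598. By limma 2 of these 10 genes passed, Mmp8 as lower and Csf3r as higher, where 9.55% of all genes passed. Only 1 of 3 IRF5-NP values of Mmp8 lay above the background. Ly6g, which defines these cells, was at 22.5 to 44.2 in all 6 samples. Immediate early genes, a list taken after the values were seen, summed to 57423 in PBS replicate 1, 20482 and 20300 in the other PBS samples, and 13428 to 15167 with IRF5-NPs. Of the 13 measured, 8 were highest among PBS samples in replicate 1, as were 50.3% of all genes. Of the 13, 2 passed as lower, Jun and Atf3, where 7.03% of all genes did. Fosb, a subunit of AP-1, had 1906, 188 and 178 normalized counts with PBS and 80.0, 59.5 and 72.8 with IRF5-NPs. Dusp1, a phosphatase of MAP kinases, had 30836, 8483 and 8230 against 3261, 5821 and 6457, and held most of the sum in PBS replicate 1. Neither passed (limma adjusted p = 0.0579 and 0.0932). Of the 13, 7 were lower in every IRF5-NP sample than in every PBS sample, as were 20.4% of all genes. Nr4a1 and Nr4a2 were higher in every IRF5-NP sample, as were 17.0% of all genes. The monocyte list of 4 genes summed to 35217 to 59168 with PBS and 54907 to 73343 with IRF5-NPs. Of the 4, 1 passed, Chil3 as lower, beside the same 7.03% of all genes. Cdh1, the only measured tumor and mesothelial marker, was 80.9 to 97.6 with PBS and 35.2 to 40.8 with IRF5-NPs, above the background in 1 of 3 IRF5-NP samples. Of the 10 macrophage markers 1 passed, Mertk as lower, where 7.03% of all genes did. None of the 5 dendritic cell or 6 eosinophil markers passed. The part of these levels in the Cxcr4 and Rgs1 values was not tested.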

How the data were processed

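The values deposited by the authors are a linear signal, the normalized count of each nCounter (NanoString) probe. Housekeeping genes served for the normalization according to the paper's methods for cultured macrophages, which also name a log2 transformation that these values do not have. Of 768 probes, 754 measure genes, 8 are negative and 6 positive controls. Dividing a sample's gene values by its factor (0.952 to 1.25, and 2.60 in IRF5-NP replicate 3) gave whole numbers within 0.01, used as counts for depth, Poisson intervals and the comparison of replicates only. A high factor multiplies the background as well.

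The values name no genome build, so no gene positions are given apart from the promoter. Groups came from the sample labels. Genes were tested with limma 3.58.1 in R 4.3.3 (lmFit, eBayes with trend) on log2(value + 1). P-values were two-sided and adjusted by Benjamini-Hochberg over 754 genes, with a threshold of 0.05 and no filter. The fit was tested on simulated data. PBS replicates 2 and 3 were averaged on the log2 scale first. A fold on this scale understates the change of low genes.

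The members and lists were chosen with earlier results of these data known. Named genes are the members, list genes past the threshold and up to 5 list genes with the highest means, the 5 nearest profiles of each selected gene, and Irf5. The table used here holds no Ikbkb row. Rgs6, Vav1, Prkca, the MHC class II genes beside Cd74 and the immediate early genes were named after their values were seen. Figures and counts were made in Python 3.11.15 with numpy 2.4.6, pandas 2.3.3, scipy 1.17.1 and matplotlib 3.10.9.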

Additional observations from a re-analysis of the deposited data

How the results depend on the processing

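S1pr1 kept its direction under all 11 alternatives, as did Cxcr4 and Rgs1. S1pr1 was at 2.17 with samples shifted to a common median and at 2.14 with negative controls subtracted, beside 1.93, and at 1.85 to 2.04 with each sample left out. A common median shifts the median of all genes from -0.03 to 0.21 and quantile normalization to 0.11, and relative to these medians S1pr1 was at 1.96, 1.96 and 1.99 as reported, with a common median and with quantile normalization, Cxcr4 at -1.82, -1.82 and -1.73, and Rgs1 at -2.22, -2.22 and -2.17. With each sample left out, Cxcr4 was between -1.94 and -1.53, Rgs1 between -2.40 and -1.48, S1pr1 minus Cxcr4 between 3.56 and 3.95, S1pr1 minus Rgs1 between 3.50 and 4.31, and Cxcr4 minus Rgs1 between -0.050 and 0.64. The lowest sizes, and the turn of Cxcr4 minus Rgs1 to -0.050, came without PBS replicate 1, which leaves PBS replicates 2 and 3 as the only PBS sample, so that tests without it assume the spread of the IRF5-NP group. Against 72 genes of the table and 7 list genes past the threshold, 6 separate samples gave 121 and 13, array weights 125 and 15, no mean-variance trend 41 genes of the table, the methods' t-test 0 and 0, Benjamini-Yekutieli adjustment 21 and 2 (not Cd69, Socs3, Ccrl2, Selp or Itgal), and negative controls subtracted 25 and 2. Leaving out samples gave 21 to 83 and 2 to 8. Some of these count more or fewer samples, and otherwise the cause was not tested. The replicate numbers were not taken as pairs, since the methods name unpaired tests. Same-numbered samples of the groups correlated at 0.222, 0.246 and 0.0957 over 560 genes. Samples of unlike number were at -0.241 (PBS replicate 1 with IRF5-NP replicate 2) to 0.213 (PBS replicate 3 with IRF5-NP replicate 2). Whether the numbers mark pairs was not tested, and the replicate block with 6 separate samples gave 135 and 16. Selp also did not pass with the filter on low values or without the trend, nor Socs3 without the trend. The 7 list genes kept their direction under all 17 alternatives, and Sphk1 passed in none of 16. Changes of the 124 genes below the background in all samples were not detectable at this depth.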
